A study of Mus musculus with 8 samples.

Results

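The RNA levels of 10 genes that set or mark the CD4 and CD8 fates of T cells were followed in splenic CD8+ T cells. They are *Runx1*, *Runx3* and *Cbfb* (the Runx complex), *Zbtb7b* and *Gata3* (factors of the CD4 lineage), *Bcl11b* and *Patz1* (zinc finger regulators), the coreceptor gene *Cd4*, and the recombinase genes *Rag1* and *Rag2*. The genes were chosen by name, with earlier results of these data known. All 10 were found among the 48321 gene symbols listed, and 7 of them passed the filter on low counts that left 12597 genes for testing. *Cd4*, *Rag1* and *Rag2* did not pass it and are described by their counts.

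The series holds 8 libraries in 4 groups of 2, from peripheral CD8+ T cells of C57BL/6 spleens: WT at day 0, KO at day 0, WT at day 5 and KO at day 5. The series describes the mice as *Satb1* F/F; E8I-cre and the cells as cultured and stimulated in vitro, with KO taken as deletion of *Satb1*, which encodes a chromatin organizer of T cells; E8I-cre is a recombinase that acts in mature CD8 lineage cells, after the lineage choice has been made. Age, the culture condition, whether WT mice carried the floxed alleles or the cre, and whether the 2 libraries of a group came from separate mice are not given in the labels, so p-values measure the spread between these libraries, which may be technical. The comparisons ask how these genes differ between genotypes at each day and between days in each genotype.

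A thymocyte that carries both coreceptors becomes a CD4 or a CD8 cell. In the CD8 branch RUNX3, bound to its partner CBFB, silences *Cd4* and *Zbtb7b*, and in the CD4 branch GATA3 acts before ZBTB7B (ThPOK), which holds off the CD8 program. RAG1 and RAG2 cut the T cell receptor genes in thymocytes and are shut off once a receptor has passed selection, and SATB1 is known as a regulator of several of these genes in the thymus.

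Between 4170126 and 11117971 reads were assigned to genes per library, and replicate 1 of KO at day 0 was the deepest. A count of 3, used as the floor, equals 0.257 to 0.723 CPM (the count scaled to the library's size), and floors and counting intervals cover counting error only. *Satb1*, the targeted gene, stood at 97.8 and 91.6 CPM in WT at day 0, at 144 and 125 in KO at day 0, at 96.5 and 116 in WT at day 5, and at 56.5 and 62.3 in KO at day 5. The gene-level count therefore went against the label at day 0 (log2 fold change 0.51, edgeR FDR 0.125) and with it at day 5 (−0.84, FDR 0.0162), although the FDR at day 5 was 0.0848 without replicate 2 of WT at day 5 and 0.174 and 0.156 without replicate 1 and 2 of KO at day 5. The libraries are called KO-labelled for this reason. A count over the whole gene cannot show whether the floxed part was lost. The CD8 T cell markers (*Cd3d*, *Cd3e*, *Cd3g*, *Cd8a*, *Cd8b1*) summed to 6160 to 10683 CPM over the libraries. The regulatory T cell list, part of which activated CD8 T cells also express, summed to 29.7 to 169 CPM at day 0 and to 1971 to 2464 CPM at day 5, when most of it was *Il2ra*. Markers of the remaining cells summed to 34.9 to 145 CPM (CD4 T cells, mostly *Izumo1r*) and 42.0 to 174 (double-positive thymocytes, mostly *Cd1d1*). Those of B cells summed to 67.6 to 168, mostly *Cd79b*, with *Cd79a* at no more than 20 counts and *Ms4a1* at no more than 2. Myeloid markers summed to 12.9 to 22.2 at day 0 and to 34.9 to 75.0 at day 5, when most of it was *Cd68*. The sums were 10.4 to 24.4 (dendritic), 0.772 to 4.76 (NK) and 21.4 to 82.5 (gamma delta T cells, mostly *Trdc*).

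Within each group the genes were ordered by CPM divided by exon length. That length was the union of all annotated exons, so the order depends on the annotation. In WT at day 0 the mean level per kilobase was 21.5 for *Bcl11b*, 16.5 for *Cbfb*, 9.31 for *Runx3*, 8.95 for *Gata3*, 4.09 for *Patz1* and 0.762 for *Runx1*. *Runx3* and *Gata3* overlapped between libraries there, and the other neighbours among these 6 did not. *Zbtb7b*, *Rag2*, *Cd4* and *Rag1* followed at 0.176 or less, overlapping one another. In KO-labelled cells at day 0 *Gata3* (12.6) stood above *Runx3* (9.85), and their libraries did not overlap. At day 5 *Cbfb* led (23.2 in WT and 23.0 in KO-labelled cells) before *Runx3* (11.1 and 12.4) and *Bcl11b* (9.32 and 8.47), so that *Bcl11b* passed from first to the third place in both genotypes.

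**Figure D1:**
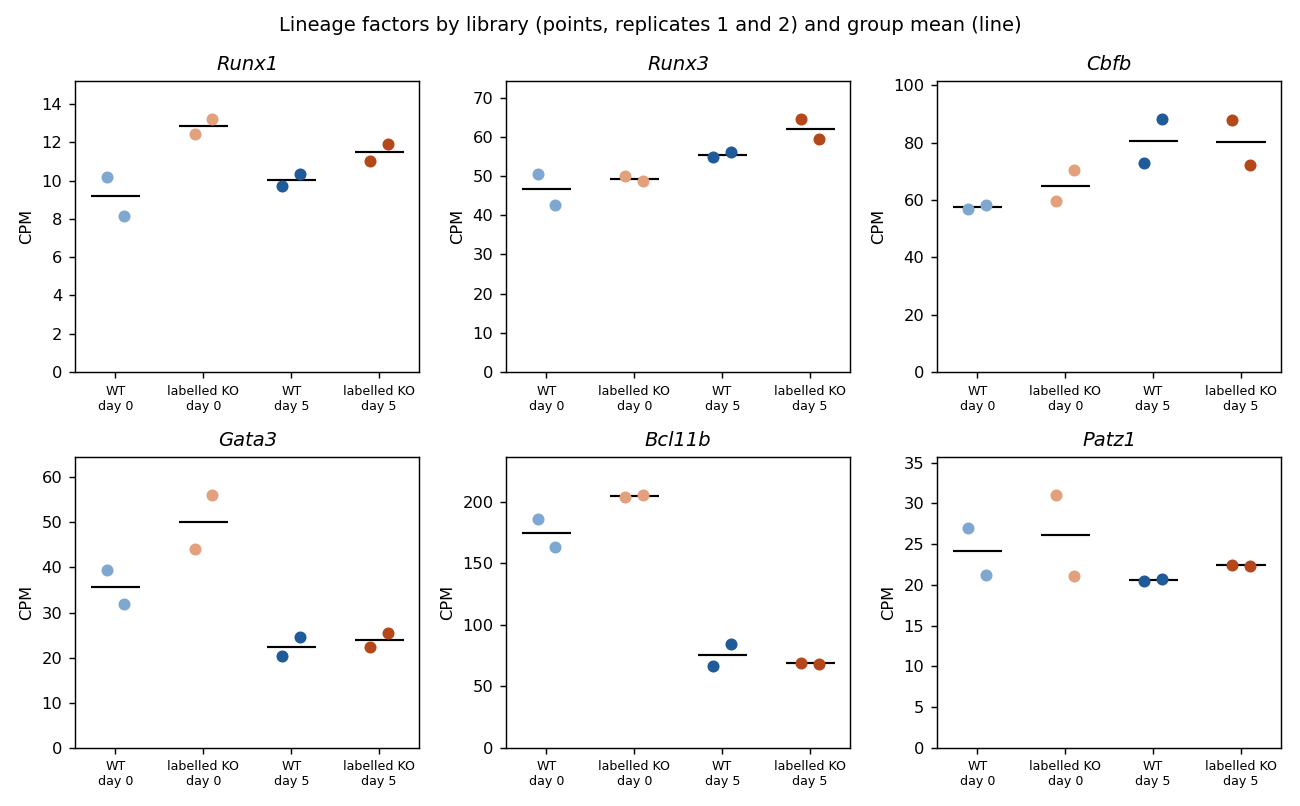
CPM of 6 lineage genes in each of the 8 libraries (points) with the mean of the 2 libraries (line), by genotype label and day, on linear axes from 0. *Bcl11b* fell from 163 to 206 CPM at day 0 to 66.8 to 84.3 at day 5, *Gata3* was also lower at day 5, and *Runx3* spanned 42.7 to 64.6 over all libraries.

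The Runx complex was present in every library, and none of its 3 genes passed the test between genotypes. *Runx3*, the CD8 lineage factor that silences *Cd4*, lies at chr4:135120652-135177990 on the plus strand of GRCm38 and read 50.4 and 42.7 CPM in WT at day 0, 49.9 and 48.6 in KO-labelled cells at day 0, 54.9 and 56.1 in WT at day 5, and 64.6 and 59.5 in KO-labelled cells at day 5. The genotypes overlapped at day 0, and at day 5 both KO-labelled libraries were above both WT libraries. The log2 fold change was 0.08 at day 0 (95% interval −0.26 to 0.42) and 0.16 at day 5 (−0.18 to 0.50). Both day 5 groups were above their day 0 groups without passing the test, by 0.25 in WT (FDR 0.214) and 0.33 ± 0.15 (SE) in KO-labelled cells (FDR 0.0913).

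*Runx1*, which represses *Cd4* in early thymocytes, lies at chr16:92601466-92826149 (minus strand). It read 10.2 and 8.14 CPM in WT and 12.4 and 13.2 in KO-labelled cells at day 0, and 9.70 and 10.4 against 11.0 and 11.9 at day 5. The KO-labelled libraries were the higher ones at both days. The log2 fold change was 0.47 ± 0.25 (SE) at day 0 (interval −0.07 to 1.01, FDR 0.439) and 0.20 at day 5 (−0.36 to 0.75), and between days it was 0.12 in WT and −0.16 in KO-labelled cells. An antisense gene, *Gm26626*, shares 0.88% of the exon length of *Runx1*.

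*Cbfb*, the non-DNA-binding partner of all Runx proteins, lies at chr8:105170674-105217989 (plus strand). Its CPM were 56.7 and 58.3 in WT at day 0, 59.7 and 70.3 in KO-labelled cells at day 0, 73.0 and 88.2 in WT at day 5, and 87.9 and 72.1 in KO-labelled cells at day 5. In each genotype both day 5 libraries were above both day 0 libraries. *Cbfb* rose 1.40-fold in WT culture (log2 0.48 ± 0.17 SE, edgeR FDR 0.0302), and stood 0.31 above day 0 in KO-labelled cells (FDR 0.139). The WT call was lost without replicate 1 or 2 of WT at day 0 (FDR 0.123 and 0.0963), without replicate 2 of WT at day 5 (FDR 0.128), with scaling by library totals (0.35, FDR 0.118), without a filter (FDR 0.0808) and with an offset for GC and gene length (0.11, FDR 0.613). Genotypes differed by 0.17 at day 0 and −0.01 at day 5, with intervals of −0.19 to 0.53 and −0.36 to 0.35.

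Per kilobase of exon, *Runx3* exceeded *Runx1* 12.3 ± 0.51-fold (SD, n = 2) in WT and 9.25 ± 0.57-fold in KO-labelled cells at day 0, and 13.3 ± 0.40-fold and 13.0 ± 1.47-fold at day 5. The length divisor was the union of annotated exons, 12.025 kilobases for *Runx1* and 5.003 for *Runx3*, and not the length of the transcripts expressed. Mean CPM at day 0 were 46.6 against 9.17 in WT and 49.3 against 12.8 in KO-labelled cells. *Runx2*, the remaining family member, rose in culture from 5 and 9 counts to 75 and 45 in WT and from 23 and 11 counts to 48 and 62 in KO-labelled cells. Its log2 fold changes were 3.07 ± 0.42 (SE, FDR 7.1e-05) and 2.36 ± 0.38 (FDR 0.000222). *Runx2* thereby went from 1.68% and 2.03% of the family's summed level per kilobase to 10.3% and 8.05%, passing *Runx1* (6.28% and 6.59% at day 5), while *Runx3* held 90.9% and 88.4% at day 0 and 83.5% and 85.4% at day 5. In KO-labelled cells the passing rests on the length divisor. At day 5 in CPM, *Runx2* read 8.83 and 11.7 there, against 11.0 and 11.9 for *Runx1*. In WT it read 13.2 and 10.8 against 9.70 and 10.4. The antisense gene *Runx2os1* shares 5.87% of the exon length of *Runx2*. The ratio of *Cbfb* to the summed Runx level had means between 1.58 and 1.74 in the 4 groups. Single libraries ranged more widely, from 1.46 to 1.90.

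**Figure D2:**
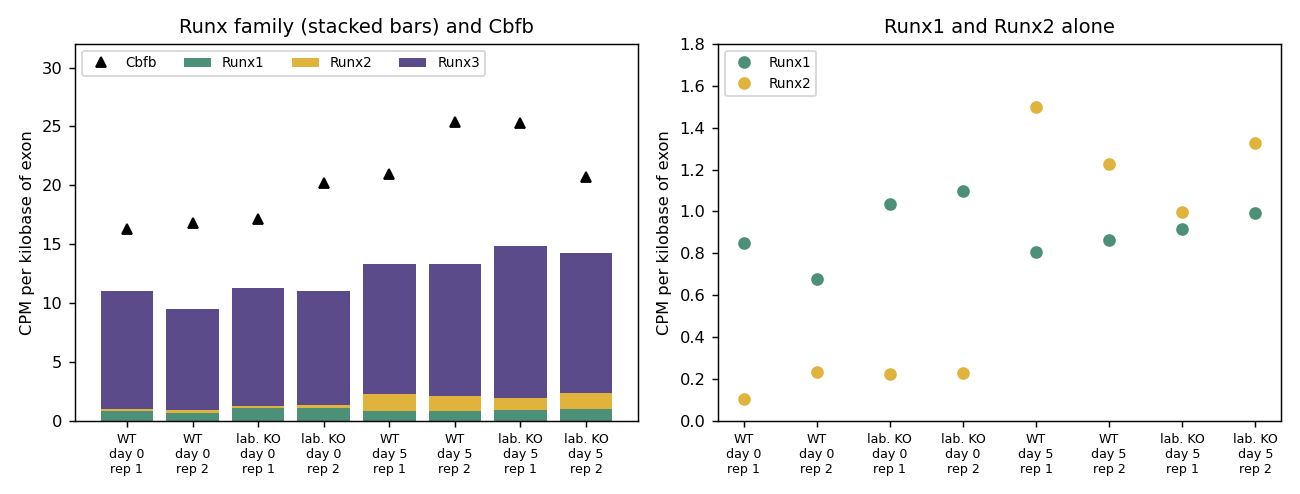
Left, level per kilobase of exon of *Runx1*, *Runx2* and *Runx3* (stacked bars) and of *Cbfb* (triangles) in each library, with "lab. KO" for KO-labelled; right, *Runx1* and *Runx2* alone on a wider scale. *Runx3* makes up most of every bar. Per kilobase, *Runx2* lies below *Runx1* in all day 0 libraries and above it in all day 5 libraries. In CPM without the length divisor, *Runx2* is below *Runx1* in both KO-labelled libraries of day 5.

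The Runx genes share a stretch of promoter sequence that holds their own family's core motif. Runx proteins bind TGTGGT, which reads ACCACA on the other strand, and both strands of the RefSeq promoter windows (GRCm38.p6, 250 bases before to 50 bases after a start) were searched for it. A window was given for 9 of the 10 genes, in 13 windows in all, and for *Cd4* none was used here. The first windows of *Runx1* and *Runx3* share 18 bases, which only 4 of 32851 windows hold: those 2, that of *Runx2*, and that of *Gm16225*, a gene on the other strand that overlaps the *Runx3* site. The stretches are shown with the motif in capitals because they are what these 3 genes have in common near their starts. The shared bases begin 27 and 22 bases after the start in *Runx1* and *Runx2* (chr16:92826025-92826054 and chr17:44814583-44814612, both minus strand), and 136 bases before it in *Runx3* (chr4:135120503-135120532, plus strand).
Runx1: cataaacaACCACAgaACCACAagttgggt
Runx2: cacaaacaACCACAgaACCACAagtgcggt
Runx3: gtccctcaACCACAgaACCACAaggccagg

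Of the 13 windows, 4 held the motif and 3 held it at 2 sites, against 16.76% of all 32851 windows with at least 1 site and 1.811% with 2 or more. Besides *Runx1* and *Runx3* these were *Rag1*, with sites 81 and 67 bases before its start (chr2:101649594-101649623, minus strand), and the second window of *Zbtb7b*, with a single site 89 bases before its start (chr3:89387743-89387772, minus strand). A match is a description of the letters and not a binding site. These 2 stretches are shown because they are the remaining windows of the 13 that held the motif.
Rag1: tatcatcatcTGTGGTtagccgtcTGTGGT
Zbtb7b: ctggcgaggaacTGTGGTatgtgagtgggt

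*Zbtb7b*, which encodes the CD4 lineage factor ThPOK, was low in all libraries, at no more than 14 counts. It lies at chr3:89377644-89394776 (minus strand) and had 11 and 0 counts in WT at day 0, 0 and 7 in KO-labelled cells at day 0, 14 and 6 in WT at day 5, and 12 and 8 in KO-labelled cells at day 5. At day 0 each genotype therefore had a library without a read, and for the KO-labelled group this was the deepest library, where 0 reads allow up to 0.316 CPM (exact 95% Poisson limit). The other libraries ranged from 1.28 to 2.47 CPM. No comparison called it, and the intervals are wide: −3.97 to 1.72 on the log2 scale between genotypes at day 0 and −2.37 to 2.17 at day 5. Between days it stood 0.90 higher in WT and 1.93 higher in KO-labelled cells (FDR 0.540 and 0.202). Without replicate 2 of KO at day 0, which leaves a lone library with no read, the latter passed the test (FDR 0.0169). The antisense gene *Gm15417* shares 2.07% of its exon length.

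*Gata3*, the zinc finger factor that acts upstream of *Zbtb7b*, was clearly expressed and fell in culture. It lies at chr2:9857078-9890034 (minus strand) and read 39.4 and 31.9 CPM in WT and 44.2 and 56.2 in KO-labelled cells at day 0, and 20.3 and 24.6 against 22.4 and 25.6 at day 5. All 4 day 5 libraries were below all 4 day 0 libraries. *Gata3* was 1.60-fold lower at day 5 in WT (log2 −0.68 ± 0.21 SE, FDR 0.0168) and 2.08-fold lower in KO-labelled cells (−1.06 ± 0.20, FDR 0.000779). The WT call was lost without replicate 1 of WT at day 0 (−0.51, FDR 0.144) or replicate 1 of WT at day 5 (−0.52, FDR 0.132), while the KO-labelled call was kept in every alternative run, with FDR of at most 0.0168.

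At day 0 both KO-labelled libraries were above both WT libraries for *Gata3*, by 0.48 ± 0.19 (SE) on the log2 scale (interval 0.06 to 0.91). The unadjusted p of edgeR was 0.0284 and the FDR 0.287, between 0.216 and 0.688 over 17 alternatives. At day 5 the difference was 0.10 (−0.35 to 0.56). Regulatory T cell markers moved in the same direction at day 0. Of the 4, 3 (*Foxp3*, *Ctla4*, *Ikzf2*) were called higher in KO-labelled cells, beside 1.8% of all genes called in either direction. The list summed to 29.7 to 31.9 CPM in WT and 157 to 169 CPM in KO-labelled libraries, with no marker at 0. Without replicate 1 or 2 of WT at day 0 the FDR was 0.0923 and 0.0602 for *Foxp3* and 0.0741 and 0.0555 for *Ikzf2*. At day 5 *Foxp3* was again called higher in KO-labelled cells, the 1 of the 4 that was, beside 1.63% of all genes called. It read 51.7 and 61.9 against 23.8 and 9.64 CPM (log2 1.73 ± 0.32 SE, FDR 0.0193), while *Gata3* differed by 0.10. That call was lost without replicate 1 or 2 of WT at day 0 (FDR 0.0518 and 0.0527), replicate 2 of WT at day 5 (0.0754) or replicate 1 or 2 of KO at day 5 (0.0695 and 0.174). The part of these markers in the *Gata3* values was not tested. Fewer cells of a type and less RNA per cell cannot be told apart in such bulk samples. The neighbours *Gm13256* (antisense) and *9230102O04Rik* (same strand) share 3.90% and 1.94% of the exon length of *Gata3*.

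**Figure D3:**
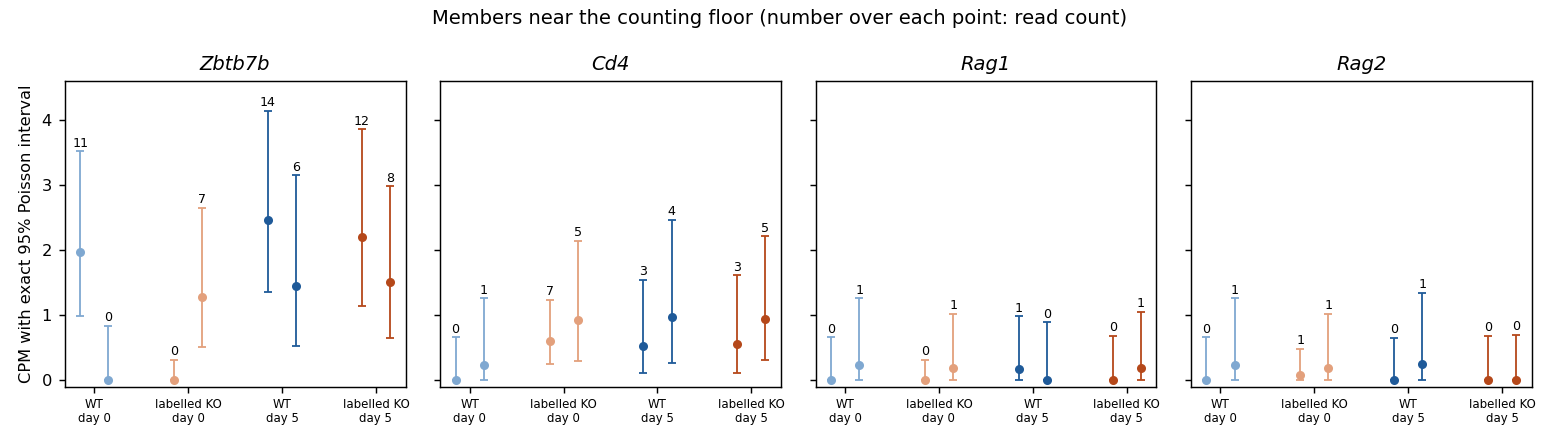
CPM of *Zbtb7b*, *Cd4*, *Rag1* and *Rag2* in each library with exact 95% Poisson intervals, and the read count over each interval. *Cd4* has at most 7 reads and *Rag1* and *Rag2* at most 1 read in any library, and the *Zbtb7b* libraries of day 0 split between 0 and 7 or more reads in both genotypes.

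*Cd4*, the coreceptor gene that CD8 cells keep silent, had 0 and 1 counts in WT at day 0, 7 and 5 in KO-labelled cells at day 0, 3 and 4 in WT at day 5, and 3 and 5 in KO-labelled cells at day 5. It lies at chr6:124864692-124888221 (minus strand). At day 0 the 12 reads of the KO-labelled group equal 0.701 CPM (exact 95% Poisson interval 0.362 to 1.23) and the 1 read of WT equals 0.0999 CPM (0.00253 to 0.556), so the intervals overlapped. The libraries did not, at 0.600 and 0.918 CPM against 0 and 0.226. Without a filter on low counts edgeR gave an unadjusted p of 0.0479 and an FDR of 0.797 for this difference, and DESeq2 gave it no adjusted p. At day 5 the groups overlapped, at 0.713 and 0.746 CPM. Of the 4 CD4 T cell markers, 3 were tested at day 0 and 1 was called, beside 1.8% of all genes. *Izumo1r* was lower in KO-labelled cells, at 74.5 and 62.2 CPM against 133 and 144 in WT (log2 −1.02 ± 0.16 SE, edgeR FDR 0.00760), and lost the call without replicate 1 or 2 of WT at day 0 (FDR 0.0830 and 0.119) or replicate 2 of KO at day 0 (0.0640). *Cd40lg* stood at 5.66 and 3.85 CPM against 1.61 and 1.13 in WT and did not pass the test (log2 1.79 ± 0.52 SE, FDR 0.134), nor did *Zbtb7b* (−1.13).

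*Rag1* and *Rag2*, the 2 subunits of the V(D)J recombinase, were at the limit of detection throughout. *Rag1* (chr2:101638282-101649501, minus strand) and *Rag2* (chr2:101624718-101632529, plus strand) each had 4 reads in the 8 libraries together and never more than 1 in a library. By group the summed counts were 1, 1, 1 and 1 for *Rag1* and 1, 2, 1 and 0 for *Rag2* (WT and KO-labelled at day 0, then at day 5). A difference was not detectable at this depth: the upper 95% Poisson limit of *Rag1* was 0.556 CPM in WT and 0.326 CPM in KO-labelled cells at day 0, and 0.567 and 0.520 CPM at day 5. The gene *B230118H07Rik* overlaps both, sharing 1.21% of the *Rag1* exons on the same strand and 6.07% of the *Rag2* exons on the other, and had 16 to 48 counts per library. *Ptcra*, a defining gene of earlier thymocytes, had at most 2 counts.

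*Bcl11b*, the zinc finger protein that keeps T cell identity, had the largest change among the called genes of the 7 tested. It lies at chr12:107910403-108003602 (minus strand) and read 186 and 163 CPM in WT and 204 and 206 in KO-labelled cells at day 0, and 66.8 and 84.3 against 69.2 and 68.2 at day 5. The days did not overlap in either genotype. *Bcl11b* was 2.32-fold lower at day 5 in WT (log2 −1.21 ± 0.15 SE, FDR 2.2e-05) and 2.98-fold lower in KO-labelled cells (−1.58 ± 0.14, FDR 1.9e-06), and both calls held in all 18 alternatives run. At day 0 the KO-labelled libraries were above WT by 0.23 (interval −0.07 to 0.53, FDR 0.517), and at day 5 the difference was −0.13 (−0.45 to 0.19). The fall was larger in KO-labelled cells by 0.36 on the log2 scale, a difference that did not pass the interaction test (FDR 0.497).

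*Patz1*, whose product MAZR represses *Zbtb7b* in thymocytes, did not pass any test. It lies at chr11:3288874-3309083 (plus strand) and read 27.0 and 21.3 CPM in WT and 31.1 and 21.1 in KO-labelled cells at day 0, and 20.5 and 20.7 against 22.4 and 22.3 at day 5. The day 0 replicates spread over most of the range, and the day 5 replicates lay close together. Its genotype differences were 0.12 at day 0 and 0.12 at day 5 (intervals −0.36 to 0.60 and −0.38 to 0.62), and its day differences were −0.23 in WT and −0.24 in KO-labelled cells. *Gm12592* shares 10.25% of its exon length on the other strand and *Gm11944* 1.49% on the same strand.

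In the genotype comparisons none of the 7 tested genes passed the threshold, at either day. With edgeR 0 of 7 were called at day 0 (1 at an unadjusted p under 0.05) and 0 of 7 at day 5 (0 at an unadjusted p under 0.05), against 1.8% and 1.63% of all genes tested, and DESeq2 also called 0 at each day. Over all 12597 genes, 1742 and 1775 had an unadjusted p under 0.05 by edgeR. The median log2 fold change of the 7 was 0.17 at day 0 and 0.10 at day 5, beside −0.0017 and 0 over all genes. The KO-labelled and WT libraries did not overlap for 4 of 7 genes at day 0 (*Runx1*, *Cbfb*, *Gata3* and *Bcl11b*, all higher), beside 43.4% of all genes, and for 3 of 7 at day 5 (*Runx1*, *Runx3* and *Patz1*), beside 45.6%.

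Culture moved 3 of 7 genes in WT, with *Cbfb* higher and *Gata3* and *Bcl11b* lower, and 2 of 7 in KO-labelled cells, with *Gata3* and *Bcl11b* lower. Of all genes, 48.3% were called in WT (24.7% higher and 23.6% lower) and 50.2% in KO-labelled cells (26.2% higher and 24% lower), so 3 and 2 genes of 7 are no more than the background gives. The days did not overlap for 5 of 7 genes in WT and 6 of 7 in KO-labelled cells, beside 73.7% and 77.9% of all genes. Scaling by library totals moved the split in KO-labelled cells from 3296 higher and 3029 lower genes to 2755 higher and 3936 lower, and the median of all genes from −0.046 to −0.23 (in WT from −0.039 to −0.17). The interaction of genotype and day called 0 of the 7 genes by edgeR (0 at an unadjusted p under 0.05) and 0 by DESeq2, beside 0.159% of all genes (10 higher and 10 lower, or 9 and 15 with library totals).

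**Figure D4:**
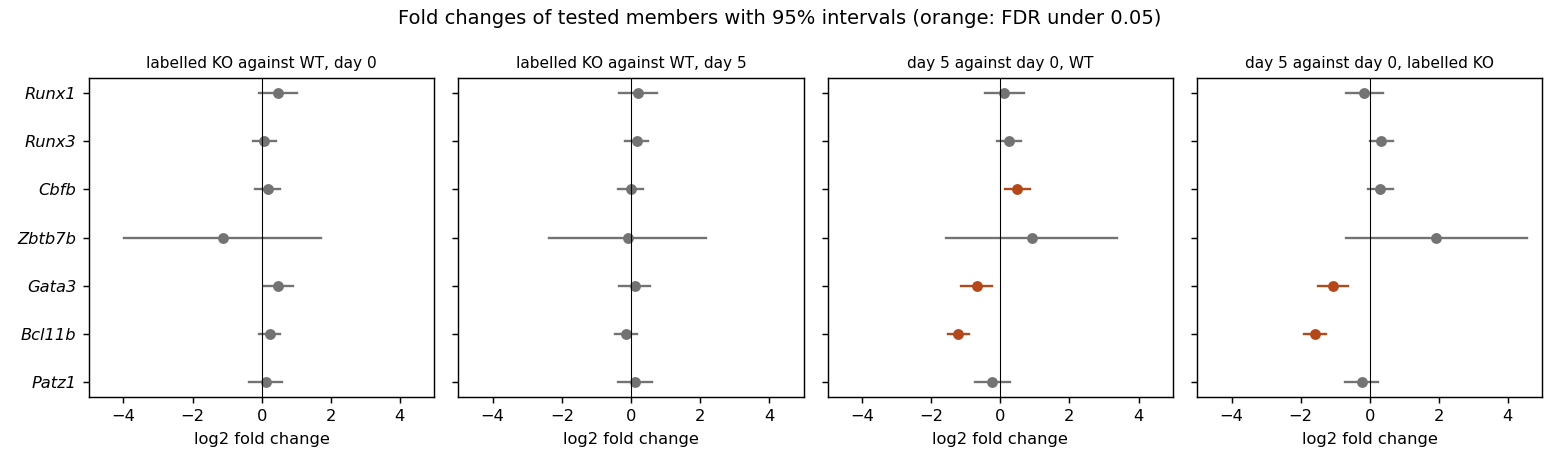
Log2 fold change with its 95% interval for the 7 tested genes in 4 comparisons, from the edgeR fit over all genes; orange marks FDR under 0.05. All 7 intervals but that of *Gata3* at day 0 (0.06 to 0.91) include 0 in the genotype comparisons, and *Gata3* and *Bcl11b* lie below 0 in both day comparisons.

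Other regulators of the lineage choice mostly fell in culture. This list and the lists that follow were chosen with earlier results of these data known. Of 16 listed genes 15 were tested, of which 2 rose and 10 fell in WT (beside 24.7% and 23.6% of all genes) and 2 rose and 12 fell in KO-labelled cells (beside 26.2% and 24%), with medians of −1.25 and −1.17 beside −0.039 and −0.046 over all genes. *Tcf7* (TCF-1, which works with LEF1 in CD8 cells) went from 1030 and 1127 CPM to 187 and 210 in WT, a log2 change of −2.44 ± 0.12 (SE, FDR 6.6e-09), and by −2.14 ± 0.12 in KO-labelled cells. *Lef1* changed by −2.30 and −2.56, and *Ets1*, an activator of *Runx3*, by −1.49 and −1.77. *Lef1* shares 13.75% of its exon length with the antisense gene *Gm43352*.

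Between genotypes edgeR called 1 of these 15 genes at day 0 (beside 1.8% of all genes) and 0 at day 5 (beside 1.63% of all genes). At an unadjusted p under 0.05 edgeR had 4 at day 0 and 6 at day 5, beside 1742 and 1775 of all 12597 genes tested. DESeq2 called 1 at day 0 and 0 at day 5. Without a filter on low counts the calls were 2 at day 0 and 1 at day 5, and without replicate 2 of WT at day 5 there was 1 at day 5. *Id3*, an inhibitor of E proteins, was higher in KO-labelled cells at day 0, at 197 and 206 against 138 and 123 CPM (log2 0.63 ± 0.13 SE, FDR 0.0318). That call was lost without replicate 1 or 2 of WT at day 0 (FDR 0.174 and 0.299), replicate 1 or 2 of KO at day 0 (0.0779 and 0.0902), or replicate 1 or 2 of KO at day 5 (0.0776 and 0.0784).

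Among 13 chromatin cofactors linked to silencing, 2 rose and 2 fell in WT culture (beside 24.7% and 23.6% of all genes), and 3 rose and 3 fell in KO-labelled culture (beside 26.2% and 24% of all genes). The number that fell depended on the setting: with library totals it was 3 in WT and 6 in KO-labelled culture, and in KO-labelled culture it was 5 without replicate 2 of KO at day 0 and 1 without replicate 1 of KO at day 5. *Uhrf1*, which guides DNA methylation after replication, rose by 3.10 ± 0.24 and 4.57 ± 0.23 (SE) on the log2 scale. *Suv39h1*, a histone methyltransferase, rose by 0.63 and 1.03 (14.55% of its exon length lies under the antisense gene *Gm14820*), and *Tle4*, a corepressor of Runx proteins, fell by 1.19 and 1.48. *Uhrf1* and the methyltransferase *Dnmt1* were the 2 of 13 called by edgeR between genotypes at day 5 (beside 1.63% of all genes), both higher in KO-labelled cells, and DESeq2 called 3.

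*Dnmt1* read 118 and 97.8 CPM in WT and 191 and 234 in KO-labelled cells at day 5 (log2 0.98 ± 0.16 SE, FDR 0.00931), and *Uhrf1* 66.7 and 60.2 against 116 and 146 (1.04 ± 0.19, FDR 0.0169). At day 5 the *Dnmt1* call was lost without replicate 2 of WT (FDR 0.0638) or replicate 2 of KO (0.169). The *Uhrf1* call was lost without replicate 1 or 2 of WT (0.0506 and 0.100) or replicate 1 or 2 of KO (0.0582 and 0.261). At day 0 edgeR called 0 of the 13 between genotypes (0 at an unadjusted p under 0.05), and DESeq2 0.

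Genes known to depend on Runx3 in CD8 cells moved in both directions in culture. Of 7, 3 rose and 4 fell in WT (beside 24.7% and 23.6% of all genes), and 3 rose and 2 fell in KO-labelled cells (beside 26.2% and 24% of all genes). The number that fell in KO-labelled cells was 4 with the GC and length offset, 3 with library totals and 3 without replicate 2 of WT at day 5. *Gzmb* (granzyme B) went from 18, 17, 21 and 9 counts at day 0 to 4807 and 4429 CPM in WT and 4602 and 3925 CPM in KO-labelled cells, and *Eomes* rose by 2.07 ± 0.26 and 1.46 ± 0.25 (SE) on the log2 scale. *Itgae*, the integrin CD103, went from 122 to 139 CPM at day 0 to 2.65 to 12.9 CPM at day 5. *Ifng* had 2, 1, 0 and 0 counts at day 0, and 91 and 33 in WT against 17 and 11 in KO-labelled cells at day 5, where 25.95% of its exon length is shared with *Gm49751* on the same strand.

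At day 5 edgeR called 3 of these 7 genes between genotypes (beside 1.63% of all genes) and DESeq2 called 2. The list was chosen with earlier results of these data known, so this share is not independent of that choice. At day 0 edgeR called 0 (2 at an unadjusted p under 0.05, beside 1742 of all 12597 genes tested) and DESeq2 0. *Cd8a*, the CD8 coreceptor chain, was higher in KO-labelled cells at 1216 and 1164 against 832 and 734 CPM (log2 0.60 ± 0.11 SE, FDR 0.0155), and *Prf1* (perforin) at 137 and 121 against 86.1 and 61.0 (0.81 ± 0.18, FDR 0.0489). *Ifng* was lower (−2.21 ± 0.47, FDR 0.0429). The *Cd8a* call was lost with only the day 5 libraries (FDR 0.0593) and without replicate 1 or 2 of KO at day 5 (0.129 and 0.126). The *Prf1* call was lost without replicate 2 of WT at day 5 (0.204), replicate 1 or 2 of KO at day 5 (0.295 and 0.209), or replicate 1 or 2 of WT at day 0 (0.0789 and 0.0803), with the replicate number as a block (0.0506), with only the day 5 libraries (0.0675) and with the GC and length offset (0.113). The *Ifng* call was lost without any 1 of the day 5 libraries (0.0601 to 0.385) or of the WT day 0 libraries (0.0789 and 0.0803) and with that offset (0.0778), and DESeq2 gave it no adjusted p.

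Of 12 genes that work with or after the recombinase, 4 rose and 2 fell in WT culture (beside 24.7% and 23.6% of all genes) and 4 rose and 3 fell in KO-labelled culture (beside 26.2% and 24%). With library totals 3 rose and 3 fell in each. In WT culture 2 rose without replicate 1 of WT at day 0, and 4 fell with the GC and length offset. *Hmgb2*, a DNA-bending cofactor of RAG, went from 25.6 to 29.5 CPM at day 0 to 368 to 487 CPM at day 5. *Dntt* (terminal transferase), which in thymocytes is made together with the RAG proteins, had 29 and 43 counts in WT and 57 and 13 in KO-labelled cells at day 0, and 81 and 120 against 96 and 77 at day 5. Its log2 changes were 1.54 ± 0.41 and 2.06 ± 0.42 (SE), the former lost without replicate 1 of WT at day 0 (FDR 0.0926) or replicate 2 of WT at day 5 (0.0961). *Prkdc* and *Lig4* of the end-joining machinery fell by 1.51 and 1.50 in WT and by 1.81 and 2.39 in KO-labelled cells, and the WT call of *Lig4* was lost without replicate 2 of WT at day 0 (FDR 0.0595).

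*Xrcc4*, the partner of *Lig4*, was the 1 gene of the 12 called by edgeR between genotypes at day 5 (beside 1.63% of all genes). It read 46.0 and 41.8 CPM in KO-labelled cells against 69.1 and 74.7 in WT (log2 −0.71 ± 0.15 SE, FDR 0.0349). The call was lost without any 1 of the day 5 libraries (FDR 0.0602 to 0.396) or of the WT day 0 libraries (both 0.0713), with only the day 5 libraries (0.0588) and with the GC and length offset (0.0846). At day 0 edgeR called 0 of the 12 (0 at an unadjusted p under 0.05), and DESeq2 0. Over all genes, the interaction by edgeR called 20 of 12597, and 1562 had an unadjusted p under 0.05. DESeq2 called 139 of 7057. In the interaction edgeR called 0 genes in each of the 4 lists (1 cofactor and 1 Runx3-dependent gene without a filter on low counts, and 1 Runx3-dependent gene without replicate 1 of WT at day 5), with 2 lineage regulators, 3 cofactors, 3 Runx3-dependent genes and 1 recombination partner at an unadjusted p under 0.05, and DESeq2 called 1, 1, 2 and 0.

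**Figure D5:**
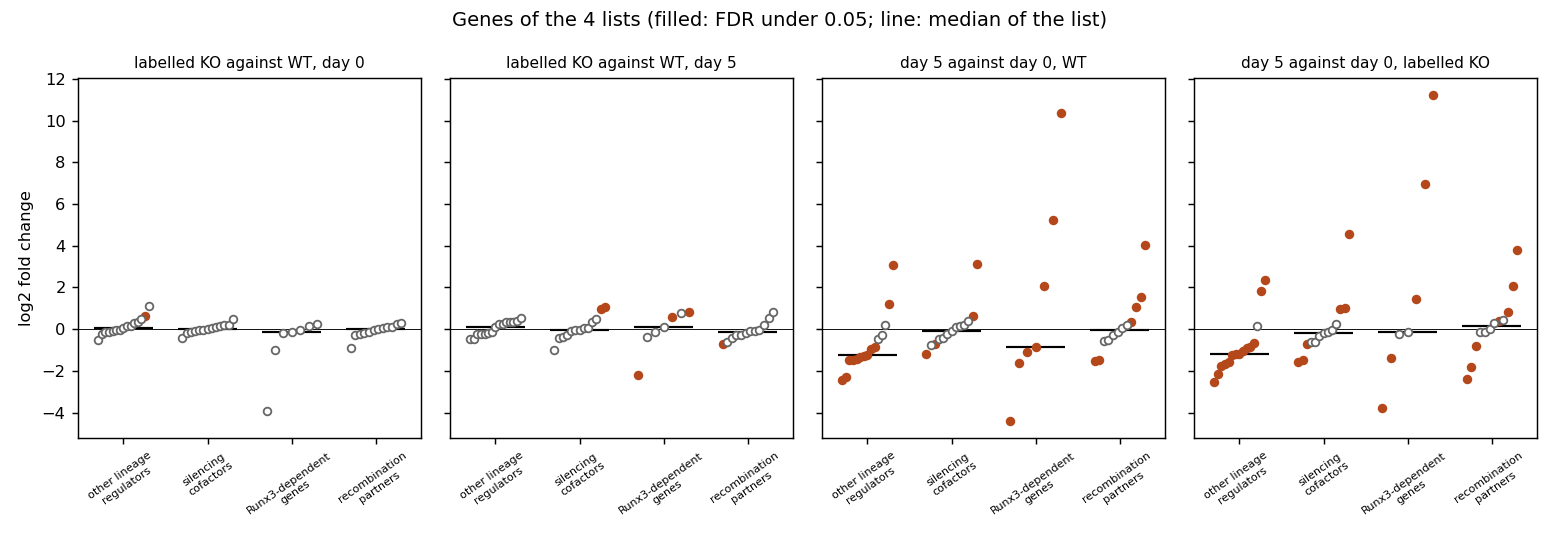
Log2 fold change of each tested gene in 4 lists of related genes, in 4 comparisons, from the edgeR fit over all genes; filled points passed FDR under 0.05 and lines are list medians. In the day comparisons the other lineage regulators sit mostly below 0 (medians −1.25 and −1.17), and in the genotype comparisons 1 gene is filled at day 0 and 6 at day 5.

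As a description, the genes whose log2 CPM profile over the 8 libraries lay closest to each lineage gene were listed by the root mean square difference after centring. For *Bcl11b* they were *Zfp950* (0.064, Pearson r 0.998) and *Gm4759* (0.083, r 0.994), and for *Gata3* *Oraov1* (0.10, r 0.981) and *Chd9* (0.11, r 0.975). *Runx3* lay closest to *Brk1* (0.045, r 0.966) and *Tmsb4x* (0.060, r 0.939), *Runx1* to *C330007P06Rik* (0.072, r 0.959), *Cbfb* to *Bcl7c* (0.090, r 0.972) and *Crybg3* (0.10, r 0.909), and *Patz1* to *Zfp322a* (0.089, r 0.897) and *Nipa2* (0.090, r 0.900). For *Zbtb7b* the nearest, *Ccnyl1* and *Myof*, were 0.54 and 0.55 away. The 8 points fall into groups by day and are not independent.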

How the data were processed

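The authors deposited 1 table of raw read counts by gene symbol per library. Per the labels, RNA of sorted cells was made into NEBNext Ultra libraries, and the submitters' processing notes name HISAT2 2.1.0, HTSeq 0.11.1 and mm10. The annotation and strand setting are not given in the sources used here. Gene symbols held 21.2% to 24.5% of the counted records, and the counter's summary lines were left out.

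Counts were tested with edgeR 4.0.16 (R 4.3.3) in 1 quasi-likelihood fit over the 8 libraries with a mean per group, TMM factors and a filter at a minimum count of 10 (12597 of 34404 counted genes kept). P-values are two-sided, with Benjamini-Hochberg adjustment over all genes tested (FDR, threshold 0.05). The procedure was tested on simulated data. CPM use the TMM-scaled library size. Exon lengths, coordinates and overlaps are from GENCODE M21 (GRCm38), and promoters from RefSeq (GRCm38.p6). Replicates differed by more than sampling noise (chi-square per degree of freedom 4.67 to 9.91).

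Alternatives were DESeq2 1.42.0, its size factors within edgeR, library totals, no filter, a filter of 5 CPM in 2 libraries, a fit of only the compared groups, a block for the replicate number, edgeR's newer quasi-likelihood form, an offset for GC and gene length (96.86% of genes), and leaving out each library. The genes, lists and tests were chosen with earlier results of these data known. Named were the 10 genes, *Satb1*, list genes called between genotypes, up to 4 per list with the largest change among those called in both day comparisons, overlapping genes, and the 2 nearest profiles per tested gene, of which 1 is not reported here. Cell type markers were a fixed list.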

Additional observations from a re-analysis of the deposited data

Results flagged for a closer look

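Of the genes named here, 2 had a genotype difference that changed with the day by the edgeR interaction test, which called 20 genes in all. *Satb1* had an interaction of −1.34 on the log2 scale (FDR 0.0269), with the KO-labelled libraries above WT at day 0 and below it at day 5, and the FDR was above 0.05 without replicate 1 or 2 of WT at day 0 (0.156 and 0.230), without replicate 1 of KO at day 0 (0.0501), without replicate 2 of WT at day 5 (0.0556), without replicate 1 or 2 of KO at day 5 (0.177 and 0.123) and with the GC and length offset (0.0771). *Ctla4*, a regulatory T cell and activation marker, had an interaction of −3.47 (FDR 0.00794), at 3.22 and 2.71 CPM in WT against 40.3 and 21.7 in KO-labelled cells at day 0 and at 295 and 272 against 276 and 262 at day 5, and lost the call without replicate 1 or 2 of WT at day 0 (FDR 0.0992 and 0.0704).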

How the results depend on the processing

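The number of called genes among the 7 did not change in the genotype comparisons or the interaction under any alternative run. In WT culture it was 3, but 2 with library totals, without a filter and with the GC and length offset, and 1 to 3 when a library was left out (1 without replicate 1 of WT at day 0), and in KO-labelled culture it was 2, and 3 without replicate 2 of KO at day 0. Of the fold changes recomputed, 563 kept direction and call, 8 lost the call, 1 gained it and 29 changed sign, none of the last having been called. Of the levels per kilobase, 10 moved by more than 1 SD with library totals, and 30 did not. With the GC and length offset the signs changed for *Runx3* (−0.077), *Cbfb* (0.10) and *Patz1* (−0.13) between genotypes at day 5, *Runx1* between days in KO-labelled cells (0.014) and *Runx3* in the interaction (−0.20). They also changed for *Cbfb* at day 5 without a filter (0.012), *Runx1* in WT culture with library totals (−0.016) and *Patz1* in the interaction with the 5 CPM filter (0.0032). The cause was not tested. Leaving out a library, where a lone library is assumed to vary like the others, gave at day 0 −0.035 to 0.21 for *Runx3*, −5.68 to 4.62 for *Zbtb7b* and −0.20 to 0.39 for *Patz1*. At day 5 it gave −0.16 to 0.13 for *Cbfb*, −0.40 to 0.37 for *Zbtb7b*, −0.026 to 0.24 for *Gata3* and −0.29 to 0.039 for *Bcl11b*. Between days it gave −0.020 to 0.31 for *Runx1* in WT and −0.48 to 0.096 for *Patz1* in KO-labelled cells, and in the interaction −0.050 to 0.19 for *Runx3*, −4.72 to 5.57 for *Zbtb7b* and −0.28 to 0.32 for *Patz1*.

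The labels number the replicates 1 and 2 in each group, and deviations of same-numbered libraries correlated at 0.118 between the WT days, 0.228 between the KO-labelled days, 0.0044 between genotypes at day 0 and −0.017 at day 5, and the labels do not say that a number marks a shared mouse or batch, so the number was not taken as a pairing. With the number as a block, 3 and 2 of the 7 genes were called in the day comparisons and 0 in the others, and the interaction of *Patz1* was 0.013, or 0.020 with the block within genotype. Over all genes the calls at day 0 numbered 227, with 434 when no filter was used and 38 and 49 without replicate 1 and 2 of WT at day 0. At day 5 they numbered 205, with 418 when no filter was used, 335 by DESeq2, 121 with the GC offset and 32 to 121 without 5 of the libraries in turn. The interaction called 20 genes, with 154 when no filter was used, 139 by DESeq2, 55 with the block within genotype, 12 with the GC offset and 0 to 41 when a library was left out. Depth limits *Zbtb7b*, *Cd4*, *Rag1* and *Rag2*, for which 3 counts equal up to 0.723 CPM.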
